A study of Homo sapiens with 12 samples.

Results

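Homologous recombination, the Fanconi anaemia pathway and the DNA damage checkpoint were followed through 41 genes. RNAseq was of C4-2 cells given DMSO or the PBK inhibitor PBKi. The genes were taken by name from their textbook roles, with earlier results of these data already known. All 41 were among the 54127 genes of the count tables, and all 41 passed the filter on low counts that left 14505 genes to test. C4-2 is a castration-resistant prostate cancer line that arose from LNCaP cells and responds to androgen, and PBKi is HI-TOPK-032, a small molecule that blocks the catalytic activity of the kinase PBK. The control group received the DMSO vehicle and the treated group 1 µM PBKi for 6 h, each with 6 libraries, and both groups were grown in RPMI with 10% serum. Nothing in the labels says that libraries of a group came from separate cultures, so p-values measure the spread between these libraries, which may be technical.

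Homologous recombination repairs a broken DNA molecule by copying the intact sister chromatid: the broken ends are cut back to single strands, a recombinase is loaded by the BRCA1, PALB2 and BRCA2 proteins, and helicases and nucleases take apart the joined molecules. The Fanconi pathway deals with crosslinks between the strands, through a core ubiquitin ligase that marks the FANCD2 and FANCI pair. The kinases ATM and ATR sense breaks and bare single strands and act through CHEK2 and CHEK1, and many of these genes are transcribed most strongly in S phase, when a sister chromatid is available.

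After PBKi, 19 of the 41 genes (46.3%) fell and 1 (2.4%) rose, where 21.5% of all genes tested fell and 20.1% rose (41.7% in either direction), and 21 of the 41 did not pass the test. The fall was steepest for CHEK2, the effector kinase of ATM, and next came the translocases RAD54L and RAD54B, the nuclease subunit EME1 and the Fanconi pair FANCI and FANCD2. The 1 gene that rose was NBN, the signalling subunit of the complex that first binds broken ends. BRCA2, ATM and ATR did not pass the test. Changes were small in size: 1 of the 41, CHEK2, fell by at least 0.5 on the log2 scale, as did 4.32% of all genes, and 0 rose by as much, against 8.81%, the highest log2 fold change of the 41 being 0.26.

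Promoters are shown for 4 of the lowered genes, since the sequence around a start site is where transcription factors such as the E2F family of S phase bind. Windows from 250 bases before the annotated start to 50 bases after it were taken from RefSeq on GRCh38.p14, and 37 of the 41 genes matched, with 50 windows in all (FANCI, NBN, RAD54B and WRN did not). The first 3 sequences hold letters of the E2F type, searched as TTTCCCGC, TTTCGCGC, TTTGCCGC and TTTGGCGC on both strands, which are in capitals and here read as the reverse complement. The fourth, the promoter of CHEK2, holds the letters CCAAT 3 times on the opposite strand, also in capitals. Each is printed up to base 20 from the start, 5′ to 3′ on the strand of its gene.
FANCD2, chr3:10026187-10026456, plus strand: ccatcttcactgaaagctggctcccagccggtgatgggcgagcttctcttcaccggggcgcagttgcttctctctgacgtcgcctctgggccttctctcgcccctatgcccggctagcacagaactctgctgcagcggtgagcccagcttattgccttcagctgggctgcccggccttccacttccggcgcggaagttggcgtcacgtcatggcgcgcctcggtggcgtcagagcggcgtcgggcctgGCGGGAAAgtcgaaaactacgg
TOPBP1, chr3:133661922-133662191, minus strand: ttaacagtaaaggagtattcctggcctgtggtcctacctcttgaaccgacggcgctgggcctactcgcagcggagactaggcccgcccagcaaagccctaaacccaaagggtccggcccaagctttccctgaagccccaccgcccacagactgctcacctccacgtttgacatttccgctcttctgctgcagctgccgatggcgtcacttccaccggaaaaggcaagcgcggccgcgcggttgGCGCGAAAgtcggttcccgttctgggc
FANCA, chr16:89816628-89816897, minus strand: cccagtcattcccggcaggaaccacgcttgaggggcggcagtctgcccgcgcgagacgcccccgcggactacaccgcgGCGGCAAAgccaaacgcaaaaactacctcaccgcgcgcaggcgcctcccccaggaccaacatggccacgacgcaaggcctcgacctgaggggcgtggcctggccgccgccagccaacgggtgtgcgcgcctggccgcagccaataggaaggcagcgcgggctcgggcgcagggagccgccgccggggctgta
CHEK2, chr22:28741801-28742070, minus strand: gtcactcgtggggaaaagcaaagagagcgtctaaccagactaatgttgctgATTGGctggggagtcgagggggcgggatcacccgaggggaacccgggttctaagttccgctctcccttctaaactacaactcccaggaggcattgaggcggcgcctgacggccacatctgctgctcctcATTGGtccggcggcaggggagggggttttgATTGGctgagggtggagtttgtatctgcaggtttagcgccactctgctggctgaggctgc
The E2F letters of FANCD2 begin 2 bases before the annotated start, those of TOPBP1 7 bases before it and those of FANCA 172 bases before it, and the CCAAT letters of CHEK2 begin 199, 70 and 40 bases before it. E2F letters were found in 6 of the 37 matched genes (16.2%), which were EXO1, FANCA, FANCC, FANCD2, TOPBP1 and XRCC2, against 4.0% of 27305 genes with a window of the same length. Of the 6, FANCA, FANCD2 and TOPBP1, which are the 3 shown with these letters, passed the test and EXO1, FANCC and XRCC2 did not. CCAAT stood in 17 of the 37 (45.9%) against 39.7% of all genes. The 17 include FANCA, whose CCAAT 33 bases before the start is not in capitals here. H2AX, which was not called, holds CCAAT 4 times. The cell cycle letters TTTGAA or TTCGAA stood in 5 of the 37 (13.5%) against 19.5%. A match of letters describes the sequence only.

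Libraries held from 9663203 to 28029908 reads on genes. Values are CPM, the read count of a gene scaled to the size of its library, and the log2 fold change is that of PBKi against DMSO, so that -1 would be a halving. Genes were called at a p-value adjusted over all 14505 genes of 0.05 in the quasi-likelihood test of edgeR, with adjustment by Benjamini and Hochberg. Reads outside genes made up 5.94% to 9.30% in PBKi and 5.74% to 6.97% in DMSO, highest in PBKi replicates 3 and 6. The 10 luminal prostate markers summed to 4863 to 5829 CPM in DMSO and 2470 to 3369 CPM in PBKi, with KLK3 the most abundant. KLK3 was present at 2677 to 3145 CPM in DMSO and 696.5 to 1360.0 CPM in PBKi, while the summed level of 5 immune markers was at most 0.738 CPM in any library and of 3 basal markers at most 1.73 CPM. The 2 endothelial markers summed to 4.03 to 7.25 CPM in DMSO and 3.09 to 4.63 CPM in PBKi, and the 5 fibroblast and muscle markers to 18.1 to 23.5 CPM and 18.0 to 22.9 CPM. VWF, which made up nearly all of the endothelial sum, was lower in PBKi (-0.50, edgeR adjusted p = 0.0155), while CDH5 was at or near 0 in both groups. Their part in the results was not tested. In bulk RNA, fewer cells in a phase or state and less RNA per cell cannot be told apart.

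The median log2 fold change was -0.14 over the 41 genes, from -0.80 to 0.26, and -0.01 over all genes tested. Below 0 were 30 of the 41, against 7521 of the 14505 genes tested. In 13 of the 41 all PBKi libraries lay below all DMSO libraries, against 9.68% of all genes, and in 1 they lay above, against 10.5%. The median of the 41 genes within a library, relative to the DMSO mean, was between -0.07 and 0.05 in DMSO and between -0.20 and -0.11 in PBKi, so the libraries of the groups did not overlap.

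**Figure D1:**
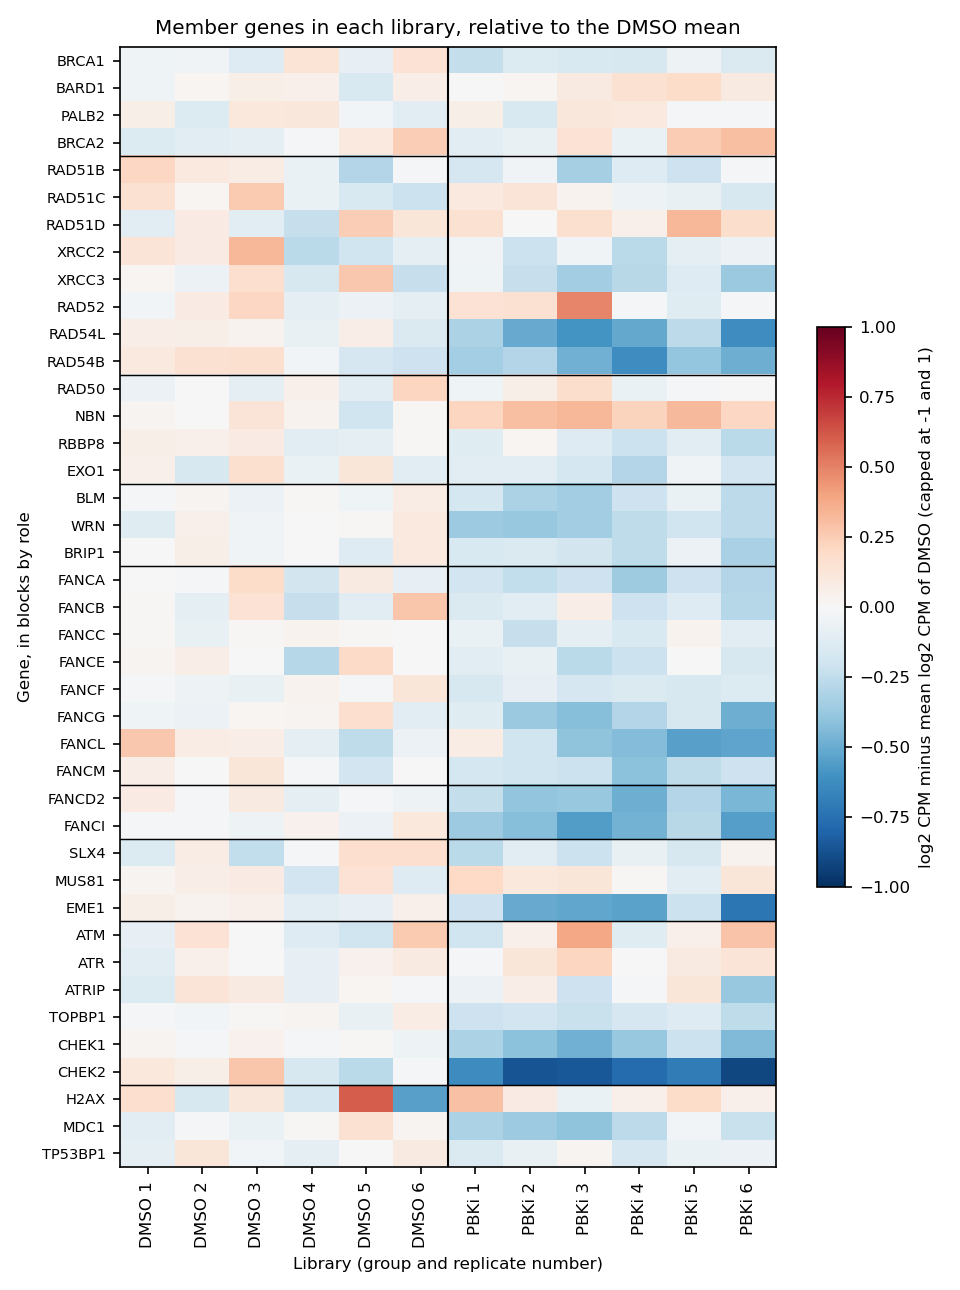
Heat map of the 41 genes (rows, in blocks by role) in the 12 libraries (columns), coloured by log2 CPM minus the mean log2 CPM of the DMSO libraries, blue lower and red higher. The PBKi columns are blue across the rows of CHEK2, FANCI, FANCD2, RAD54L and EME1 and red across NBN, while the H2AX row varies most among DMSO libraries.

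The count varied with the libraries in the fit. Within replicates 1 to 3 alone, 17 of the 41 fell and 1 rose (22% of all genes fell and 23.1% rose), while within replicates 4 to 6 alone 9 fell and 1 rose (8.32% of all genes fell and 8.78% rose). All 19 lowered genes were below 0 in both sets, but they had been called on the same libraries, so this is not a separate check. Without PBKi replicates 3 and 6, 14 fell and 1 rose (15.3% of all genes fell and 15.1% rose). With 1 library left out at a time, 15 to 21 of the 41 fell (18% to 22.2% of all genes fell), and 14 of the 19 were called in all 12 of these fits. The exceptions were BRCA1, FANCF, BRIP1, XRCC3 and FANCL.

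**Figure D2:**
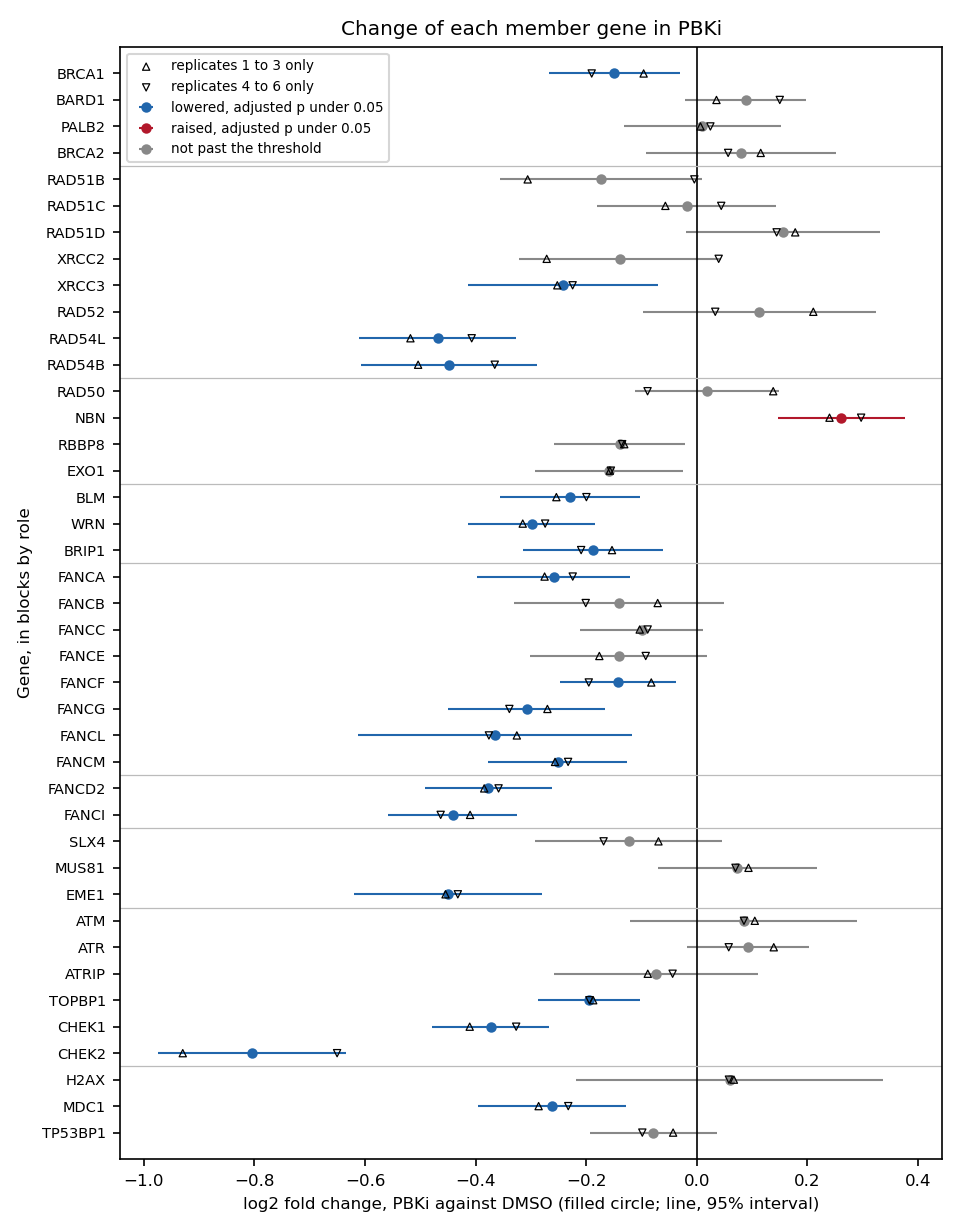
Log2 fold change of each of the 41 genes, PBKi against DMSO (filled circles, with the 95% interval as a line), with the values from replicates 1 to 3 alone (triangles pointing up) and 4 to 6 alone (triangles pointing down). CHEK2 lies farthest to the left at -0.80 and NBN is the 1 gene called to the right of 0. For all 19 lowered genes, which were called on these same libraries, both triangles lie left of 0.

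Checkpoint kinases held both the largest change and several genes without one. CHEK2, the kinase that ATM activates after a break (chr22:29083731-29138410, minus strand, on GRCh37), was read at 56.4, 69.1 and 82.6 CPM (lowest, median and highest library) in DMSO and at 36.1, 38.8 and 43.9 CPM in PBKi. Every PBKi library lay below every DMSO library. The log2 fold change was -0.80 (SE 0.081, edgeR adjusted p = 5.18e-07), with -0.93 in replicates 1 to 3 and -0.65 in replicates 4 to 6. DMSO replicates 1, 2 and 3 were at 73.1, 70.7 and 82.6 CPM and DMSO replicates 4, 5 and 6 at 60.9, 56.4 and 67.6 CPM. CHEK2 has 8 named pseudogenes, and reads that fit several places were left out of the counts.

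CHEK1, the kinase downstream of ATR that holds back mitosis while replication is incomplete, gave 102, 105 and 108 CPM in DMSO and 75.4, 80.2 and 90.6 CPM in PBKi. No library of one group entered the range of the other, and the log2 fold change was -0.37 (SE 0.050, edgeR adjusted p = 1.51e-05). A long non-coding RNA and STT3A overlap 13.4% of its exon sequence. TOPBP1, the scaffold that switches ATR on, was at 186, 195 and 205 CPM in DMSO and 164, 170.2 and 178 CPM in PBKi. Its groups were also apart, at a log2 fold change of -0.20 (SE 0.044, edgeR adjusted p = 0.0017). The ratio of CHEK2 to CHEK1 within a library, on the log2 scale, ran from -0.91 to -0.39 in DMSO and from -1.11 to -0.95 in PBKi.

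Neither apical kinase passed the test. ATM, which responds to double-strand breaks, spanned 59.1, 66.2 and 81.3 CPM in DMSO and 59.1, 70.5 and 89.0 CPM in PBKi, a log2 fold change of 0.08 (95% interval -0.12 to 0.29, edgeR adjusted p = 0.512). ATR, which responds to single-stranded DNA, spanned 93.2, 102 and 106 CPM in DMSO and 99.3, 108 and 116 CPM in PBKi, at 0.09 (95% interval -0.02 to 0.20, edgeR adjusted p = 0.17). The ranges of both genes overlapped, and the intervals leave room for a rise of up to 0.29 and 0.20 on the log2 scale. ATRIP, the partner that brings ATR to single strands, was low, with 10.7 to 12.9 CPM in DMSO and 9.01 to 12.8 CPM in PBKi, and was not called at -0.07. TREX1, on the same strand, shares 26.7% of the exon sequence of ATRIP.

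**Figure D3:**
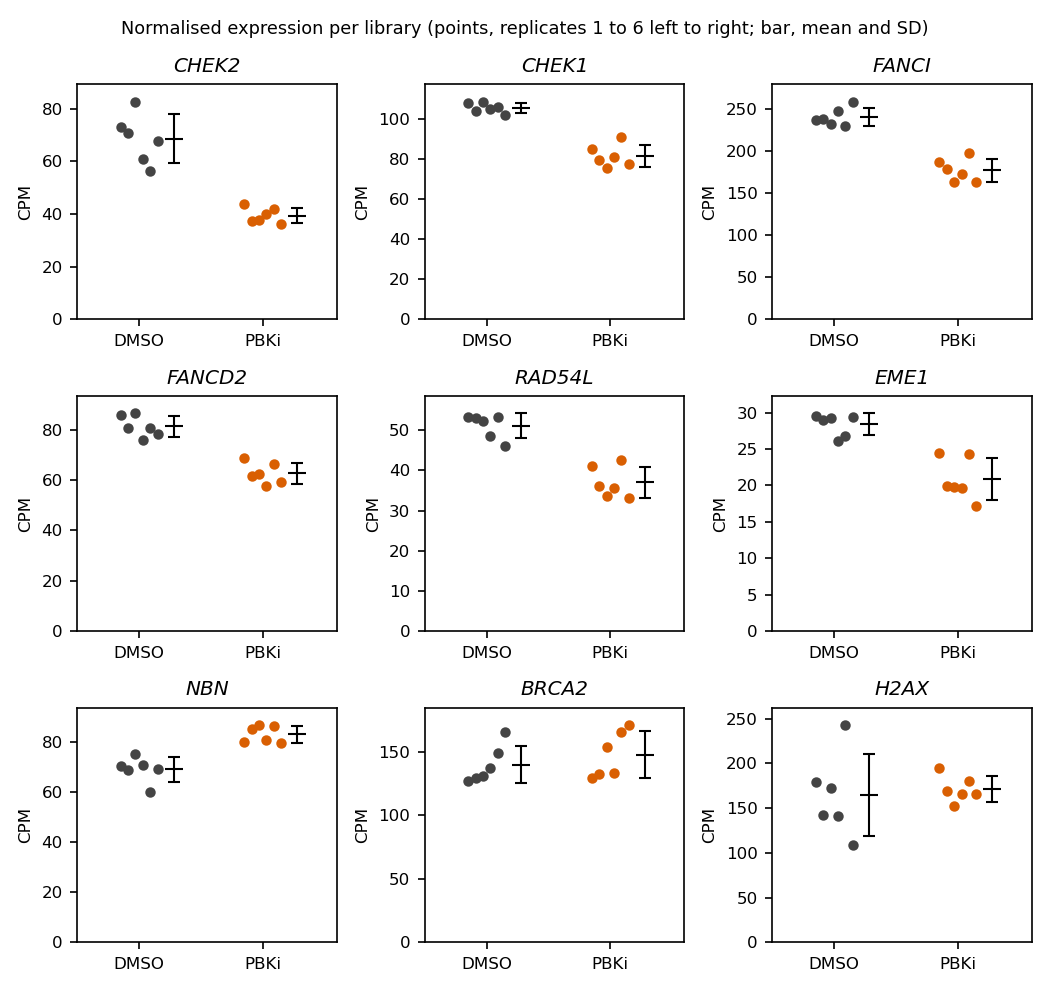
CPM of 9 genes in each library, with DMSO in grey and PBKi in orange, replicates 1 to 6 from left to right, and the mean and SD beside them on axes that start at 0. CHEK2, CHEK1, FANCI, FANCD2, RAD54L and EME1 separate downwards in PBKi and NBN upwards, while BRCA2 and H2AX overlap.

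In the Fanconi pathway, both genes of the pair at its centre fell, as did 5 of the 8 genes of the core complex and its anchor. Of all genes tested, 21.5% fell. FANCI (chr15:89787176-89860492, plus strand, on GRCh37) was at 230.2, 237 and 259 CPM in DMSO and 163, 176 and 198 CPM in PBKi. Its groups were apart, at a log2 fold change of -0.44 (SE 0.055, edgeR adjusted p = 6.74e-06). FANCD2, its partner (chr3:10068054-10143616, plus strand), was at 75.9, 80.5 and 86.4 CPM in DMSO and 57.7, 62.0 and 68.8 CPM in PBKi. It too was lower in every PBKi library, at -0.38 (SE 0.055, edgeR adjusted p = 3.01e-05). The log2 ratio of FANCD2 to FANCI within a library was -1.57 on average in DMSO and -1.50 in PBKi, with overlapping ranges.

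All 8 genes of the Fanconi core and its anchor had log2 fold changes below 0, and 5 passed the test. Of all 14505 genes tested, 7521 were below 0 and 21.5% passed the test as lowered. FANCG, a scaffold of the core, was at 85.3, 91.9 and 104 CPM in DMSO and 65.8, 73.3 and 85.2 CPM in PBKi, where the highest PBKi library just missed the lowest DMSO library, at -0.31 (SE 0.067, edgeR adjusted p = 0.00144). FANCA, a partner of FANCG in the core, was at 23.9, 27.1 and 30.9 CPM in DMSO and 21.2, 23.2 and 23.7 CPM in PBKi, at -0.26 (SE 0.066, edgeR adjusted p = 0.00441). ZNF276 overlaps 19.6% of the exon sequence of FANCA on the opposite strand and fell as well, at -0.37 (edgeR adjusted p = 0.0024). Whether the counting used strand is not given in the sources used here.

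FANCL, the ubiquitin ligase subunit of the core, had the fewest reads of the 41 genes, with 5.84, 7.02 and 8.45 CPM in DMSO and 4.77, 5.19 and 7.36 CPM in PBKi. The groups overlapped, as PBKi replicate 1 was the highest of its group, and the log2 fold change of -0.37 had a wide error (SE 0.118, edgeR adjusted p = 0.0192). Without DMSO replicate 1 it was -0.29 and was not called (edgeR adjusted p = 0.0749). FANCM, the DNA translocase that anchors the core, fell by 0.25 on the log2 scale (edgeR adjusted p = 0.0026). FANCF, an adaptor, fell by 0.14 (edgeR adjusted p = 0.0289), and its call was lost without DMSO replicate 1, 2, 4 or 6 or PBKi replicate 1 or 3 (adjusted p of 0.0514 to 0.0892). FANCB, FANCC and FANCE, further core subunits, were not called, at -0.14, -0.10 and -0.14, although FANCE passed without DMSO replicate 4 (edgeR adjusted p = 0.0439).

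The recombinase helpers split between the RAD54 translocases and the paralogues. RAD54L, a motor that drives strand exchange on chromatin (chr1:46712133-46744152, plus strand, on GRCh37), was at 46.2, 52.7 and 53.4 CPM in DMSO and 33.2, 35.9 and 42.5 CPM in PBKi. The groups were apart, at -0.47 (SE 0.068, edgeR adjusted p = 2.96e-05), which was the second largest change of the 41. LRRC41 overlaps 19.9% of its exon sequence on the opposite strand and rose by 0.20 on the log2 scale (edgeR adjusted p = 0.0074).

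RAD54B, its relative, was at 38.9, 46.02 and 50.2 CPM in DMSO and 29.2, 33.3 and 36.6 CPM in PBKi. Its groups were apart at -0.45 (SE 0.076, edgeR adjusted p = 0.000142), although FSBP shares 66.0% of its exon sequence on the same strand. Reads assigned to no single gene were left out, so reads from the shared sequence may be missing from its count. XRCC3, a paralogue of the recombinase, was at 44.1, 50.8 and 62.1 CPM in DMSO and 39.9, 43.3 and 49.97 CPM in PBKi. The groups overlapped, and the log2 fold change was -0.24 (SE 0.082, edgeR adjusted p = 0.0243). The call was lost without DMSO replicate 3, PBKi replicate 3 or PBKi replicate 6 (adjusted p of 0.0566 to 0.0644), and KLC1, which overlaps 76.7% of its exon sequence on the opposite strand, was not called at 0.13.

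The other paralogues, which form assemblies that steady the recombinase on DNA, were not called. RAD51B stood at -0.17, RAD51C at -0.02, RAD51D at 0.16 and XRCC2 at -0.14, and so did RAD52, a mediator of strand annealing, at 0.11. The values depended on the libraries in the fit. Without DMSO replicate 5, RAD51B was lower (-0.21, edgeR adjusted p = 0.0335) and RAD51D higher (0.21, edgeR adjusted p = 0.0426) past the threshold, and RAD51C changed sign without DMSO replicate 1, DMSO replicate 3 or PBKi replicate 6. RAD51B was -0.31 within replicates 1 to 3 (edgeR adjusted p = 0.0267) and -0.0046 within replicates 4 to 6 (edgeR adjusted p = 0.985). XRCC2 was -0.27 within replicates 1 to 3 (edgeR adjusted p = 0.00745) and 0.04 within replicates 4 to 6 (edgeR adjusted p = 0.802). The differences between the sets were not tested.

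Of the 4 genes that load the recombinase, BRCA1 alone was called. BRCA1, the ubiquitin ligase that opens the pathway (chr17:41196312-41322262, minus strand, on GRCh37), was at 113, 121 and 137 CPM in DMSO and 105, 112 and 119.6 CPM in PBKi. The groups overlapped, and the fall of 0.15 on the log2 scale (SE 0.056, edgeR adjusted p = 0.0412) lay near the threshold. Without DMSO replicate 1, 2, 4 or 6 or PBKi replicate 1, 2, 3, 4 or 6 it was no longer called, at adjusted p of 0.0646 to 0.138 and log2 fold changes of -0.15 to -0.11. BARD1, its obligate partner, was not called at 0.09 (95% interval -0.02 to 0.20). The log2 ratio of BRCA1 to BARD1 ran from -0.12 to 0.15 in DMSO and from -0.25 to -0.09 in PBKi, so the ranges overlapped at their ends.

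BRCA2, the loader of the recombinase (chr13:32889223-32974405, plus strand), was at 127, 134 and 165 CPM in DMSO and 129, 144 and 171 CPM in PBKi. The ranges overlapped almost wholly, at a log2 fold change of 0.08 (95% interval -0.09 to 0.25, edgeR adjusted p = 0.456). PALB2, which bridges BRCA1 and BRCA2, was at 17.8 to 21.2 CPM in DMSO and 17.6 to 21.2 CPM in PBKi, with a change of 0.01 (95% interval -0.13 to 0.15). The interval of BRCA2 was the wider of these and includes a rise of 0.25.

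Among the proteins at broken ends, NBN went against the other called genes. NBN recruits ATM to the break (chr8:90936743-91015456, minus strand, on GRCh37), and its transcript was at 59.8, 69.6 and 75.2 CPM in DMSO and 79.3, 82.6 and 86.6 CPM in PBKi. All PBKi libraries were above all DMSO libraries, at a log2 fold change of 0.26 (SE 0.054, edgeR adjusted p = 0.00094), and the call held in all 12 fits with 1 library left out (0.23 to 0.30). MRE11, the nuclease subunit of the same complex and one of the partner genes outside the 41, went the other way, at 58.0, 66.45 and 69.6 CPM in DMSO and 47.35, 48.8 and 53.3 CPM in PBKi. All its PBKi libraries lay below all DMSO libraries, at -0.40 (SE 0.053, edgeR adjusted p = 1.23e-05). RAD50, the subunit that tethers the ends, was at 58.6 to 73.6 CPM in DMSO and 60.6 to 71.6 CPM in PBKi. Its change was 0.02 (95% interval -0.11 to 0.15). An unnamed gene model on the same strand and the non-coding TH2LCRR on the opposite strand together share 76.9% of its exon sequence. RBBP8 and EXO1, which start and extend the cutting back of ends, were near the threshold at -0.14 (edgeR adjusted p = 0.055) and -0.16 (edgeR adjusted p = 0.0524). RBBP8 passed without DMSO replicate 5 or PBKi replicate 2, and EXO1 without DMSO replicate 2 or 6 or PBKi replicate 5. Limma-voom also called RBBP8 (adjusted p = 0.0489) and DESeq2 also called EXO1 (adjusted p = 0.0482).

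All 3 helicases fell, where 21.5% of all genes tested fell. WRN, the Werner syndrome helicase (chr8:30891304-31033654, plus strand, on GRCh37), was at 38.4, 41.9 and 44.8 CPM in DMSO and 32.2, 33.8 and 36.5 CPM in PBKi, with groups apart, at -0.30 (SE 0.055, edgeR adjusted p = 0.000305). BLM, the Bloom syndrome helicase that dissolves double junctions, was at 24.1, 25.1 and 26.5 CPM in DMSO and 19.7, 21.3 and 24.0 CPM in PBKi. Its groups were apart by a small gap, at -0.23 (SE 0.060, edgeR adjusted p = 0.00549). BRIP1, a helicase that binds BRCA1, was at 24.6, 26.8 and 28.8 CPM in DMSO and 21.4, 23.9 and 25.7 CPM in PBKi, at -0.19 (SE 0.060, edgeR adjusted p = 0.0188). Its groups overlapped, and its call was lost without DMSO replicate 1, 2 or 6 (adjusted p of 0.0503 to 0.0609).

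Of the 3 nucleases and nuclease scaffolds, EME1 fell. EME1, the partner of MUS81 in cutting joined molecules (chr17:48450581-48458844, plus strand, on GRCh37), was at 26.2, 29.2 and 29.6 CPM in DMSO and 17.1, 19.9 and 24.5 CPM in PBKi. No ranges crossed, at -0.45 (SE 0.081, edgeR adjusted p = 0.000264), while LRRC59, which overlaps 16.4% of its exon sequence on the opposite strand, rose by 0.21 (edgeR adjusted p = 0.0056). MUS81, the catalytic subunit, was not called at 0.07 (95% interval -0.07 to 0.22), and SLX4, the scaffold that holds several nucleases, was not called at -0.12. The log2 ratio of EME1 to MUS81 averaged -0.10 in DMSO and -0.63 in PBKi, with ranges that overlapped at their ends.

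At the chromatin of the break, MDC1 fell and H2AX and TP53BP1 were not called. MDC1, the mediator that binds the phosphorylated histone, was at 155, 168 and 186 CPM in DMSO and 127, 137 and 164 CPM in PBKi, with overlap through the highest PBKi library, at -0.26 (SE 0.064, edgeR adjusted p = 0.00318). H2AX, the histone variant that ATM phosphorylates (chr11:118964584-118966175, minus strand, on GRCh37), spread from 109 to 243 CPM in DMSO with a median of 157 CPM, and was at 153, 167 and 195 CPM in PBKi. DMSO replicate 6 was the lowest and DMSO replicate 5 the highest of the 12 libraries, the coefficient of variation in DMSO was 27.9%, and the log2 fold change of 0.06 had a 95% interval of -0.22 to 0.34 (edgeR adjusted p = 0.748). TP53BP1, which shields ends from cutting back, stood at -0.08.

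Levels of the genes in DMSO, as CPM per kilobase of the canonical transcript, ran from 103 for H2AX, 50.8 for FANCI and 37.2 for CHEK2 down to 2.89 for SLX4, 2.57 for ATRIP and 1.62 for RAD51D. CHEK2 ranked 3 and CHEK1 8 of the 41 on this scale, while ATM ranked 30 and BRCA2 23. The canonical transcript may not be the one used in these cells.

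Beyond the 41, 75 of 78 other genes of the same pathways passed the filter, and 28 (37.3%) fell and 9 (12%) rose, where 21.5% of all genes tested fell and 20.1% rose, with a median log2 fold change of -0.08. Of the 6 partners in end sensing and resection, 5 fell and 1 rose, and all 3 subunits of replication protein A, which coats single strands, were among those that fell: RPA1 at -0.23, RPA2 at -0.30 and RPA3 at -0.41. The largest falls among partners of at least 5 CPM were those of RAD51AP1, which aids the recombinase (-0.53, SE 0.110, edgeR adjusted p = 0.00089), PARPBP, a restraint on recombination (-0.51, edgeR adjusted p = 0.00079), CENPX, part of the FANCM anchor (-0.49), RMI2, of the BLM complex (-0.48), and UBE2T, the ubiquitin-conjugating enzyme of the Fanconi core (-0.44). Of the clamp and fork mediators, 6 of 16 (37.5%) fell and HUS1, a clamp subunit, rose by 0.24 on the log2 scale. Of the break-site ubiquitin and shieldin genes, 5 of 15 (33.3%) fell and RNF168, BRCC3 and BABAM2 rose, and of the Fanconi partners 4 of 14 (28.6%) fell and REV3L, the catalytic subunit of a bypass polymerase, rose (0.39, edgeR adjusted p = 0.0075). Of the recombinase partners, 4 of 11 (36.4%) fell and SWI5 rose (0.22, edgeR adjusted p = 0.0112). Of the dissolution and resolution genes, 4 of 13 (30.8%) fell, and the topoisomerase TOP3A (0.15, edgeR adjusted p = 0.027) and the nuclease subunit ERCC4 (0.29, edgeR adjusted p = 0.0022) rose. With so few genes in each role, several of these shares lie near that of all genes, and no role was tested against the rest.

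Genes of S phase and of G2 and mitosis fell as well. Of 40 S phase genes outside the 41, 24 fell (60%) and 0 rose in the edgeR test (0 at an unadjusted p under 0.05, and 0 in DESeq2 and limma-voom), with a median log2 fold change of -0.22. Of 54 genes of G2 and mitosis, 44 fell (81.5%) and 0 rose in the edgeR test (0 at an unadjusted p under 0.05, and 0 in DESeq2 and 0 in limma-voom), with a median of -0.30. Their medians within a library were between -0.08 and 0.10 (S phase) and between -0.06 and 0.07 (G2 and mitosis) in DMSO and between -0.30 and -0.11 and between -0.43 and -0.17 in PBKi. PBKi replicate 5 had the least negative median in both lists and in the 41 genes, and PBKi replicate 6 the most negative in both lists. The part of the cell cycle lists in the change of the 41 genes was not tested.

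**Figure D4:**
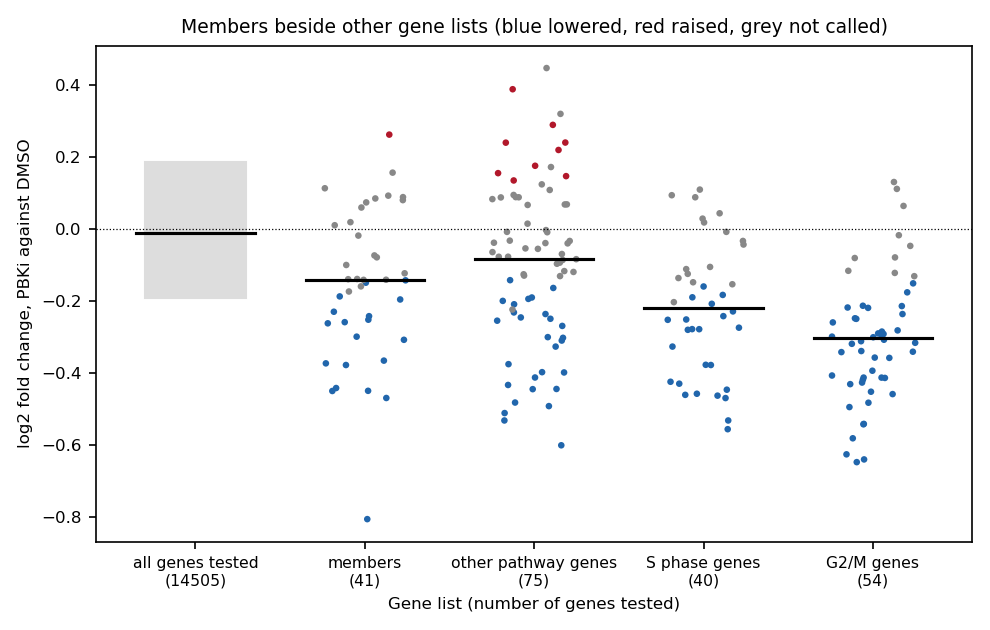
Log2 fold change of PBKi against DMSO (vertical axis) for the 41 genes, 75 other pathway genes, 40 S phase genes and 54 G2 and mitosis genes, 1 point per gene with blue lowered, red raised and grey not called, and the median as a bar. The grey box holds the middle 50% of all 14505 genes tested around their median of -0.01, and the medians of the lists lie at -0.14, -0.08, -0.22 and -0.30.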

How the data were processed

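RNA of C4-2 cells was sequenced in 12 libraries (6 DMSO, 6 PBKi). Per the submitters' notes, the authors aligned reads to GRCh37 with TopHat2 2.0.4 and counted them per gene with HTSeq 0.5.3p9, and the deposited values are raw counts in 47 lane files. The labels name a miRNeasy kit and flow sorted cells, whereas the study's methods name an AllPrep kit. Counts of a library were summed over lanes (chi-square per degree of freedom between lanes 0.99 to 1.019). The 5 rows naming no gene (34.5% to 37.1% of each file's total, reads fitting several places included) were left out. DMSO replicate 5 has 3 lanes and the others have 4.

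Genes that reached 10 counts in 6 or more libraries were tested (TMM, edgeR 4.0.16 quasi-likelihood test, R 4.3.3, no covariates, Benjamini-Hochberg over all genes at 0.05). SEs were derived from the F statistic and the log2 change. The procedure was tested on simulated data. Coordinates and exon overlaps came from GENCODE 44 mapped to GRCh37, and overlaps in the annotation used for counting may differ. Alternatives were DESeq2 1.42.0, limma-voom (limma 3.58.1), RLE factors, other filters, thresholds and lanes, a replicate block, a covariate for replicates 1 to 3 against 4 to 6, these sets apart, and libraries left out. Per role, the text gives full values for up to 3 of the largest called changes, called genes of opposite direction, and BRCA1, BRCA2, ATM, ATR, CHEK1, CHEK2, FANCD2 and H2AX, and of the partners the 5 largest called changes at a mean of at least 5 CPM. A few partners and overlapping genes were named after their values were seen. The members, lists and ratios were chosen with earlier results of these data known. Some genes of these pathways are not reported here.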

Additional observations from a re-analysis of the deposited data

Results flagged for a closer look

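In the 82 groups of 6 libraries (41 genes in DMSO and in PBKi), 3 held a library whose gap to the nearest other exceeded the 95% critical value of Dixon's ratio, where chance gives about 5% of groups. FANCC in DMSO replicate 2 was at 39.4 CPM against 41.4 to 42.5 CPM in the other DMSO libraries. FANCF in PBKi replicate 2 was at 38.4 CPM against 36.2 to 36.9 CPM, and FANCM in PBKi replicate 4 was at 33.2 CPM against 37.1 to 39.1 CPM in the other PBKi libraries.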

How the results depend on the processing

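Each of the 41 genes was refitted under 23 alternatives, and 863 of the 943 values kept their direction and side of the threshold, 48 lost a call, 16 gained one and 16 changed sign. The changes of sign were in 7 genes, of which 0 were called by edgeR. Without PBKi replicates 3 and 6, the log2 fold change was -0.0077 for PALB2, 0.0082 for RAD51C, -0.0198 for RAD50, -0.0594 for ATM and 0.0256 for ATRIP. In replicates 4 to 6 alone it was 0.044 for RAD51C, 0.0394 for XRCC2 and -0.0892 for RAD50. With 1 library left out it ran from -0.0124 to 0.0409 for PALB2, from -0.0482 to 0.048 for RAD51C, from -0.0161 to 0.0756 for RAD50 and from -0.0188 to 0.203 for H2AX (below 0 without DMSO replicate 6).

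In replicates 4 to 6 alone, 9 of the 41 genes, 8 other pathway genes, 12 S phase genes and 25 genes of G2 and mitosis fell, 0 other pathway genes rose, and 1207 of all genes fell and 1273 rose. In replicates 1 to 3 alone, 2 genes of G2 and mitosis rose. At a log2 fold change of at least 0.5 in size, 1 of the 41 genes, 3 other pathway genes, 2 S phase genes, 6 genes of G2 and mitosis and 626 of all genes fell, and 0 of the 41, 0 other pathway genes and 1278 of all genes rose. At an adjusted p of 0.01, 2073 of all genes fell and 5 other pathway genes rose. With 1 library left out, 1 to 2 of the 41 genes (2 without DMSO replicate 5) and 0 to 1 genes of G2 and mitosis rose. Stricter thresholds leave fewer calls by construction, and for the other lost calls the cause was not tested. DESeq2 called 20 of the 41 lowered and 1 raised, and called 3167 of all genes (21.8%) lowered.

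Libraries with the same replicate number departed from the means of their groups together, at correlations of 0.089 to 0.299 (over 0.1 in 5 of 6 pairs, and 8 of 12 libraries correlated best with their own number), and the labels give no shared origin, so the numbers were not taken to pair the samples. With the replicate number as a block, 21 of the 41 genes fell and 1 rose, RBBP8 and EXO1 being added, and 3803 of all genes (26.2%) fell and 3485 (24%) rose. The ratios of gene pairs were chosen after the data were seen, as were their refits. Genes of low counts, such as FANCL (54 to 203 counts a library), limit how small a change can be seen.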
